A study of Homo sapiens with 6 samples.

Results

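The genes described here are 40 that build and drive the DNA replication machinery, from the proteins that mark and license replication origins to those that travel with the fork. They were listed by name, from what each is known to do, and make up 40 of the 55765 gene symbols counted in the libraries. The choice of these and of the further genes listed was made with earlier results of these data known. The cells were C4-2, a castration-resistant subline of the human prostate cancer line LNCaP, so that the values stand for 1 cell line. They were kept in DMEM with 5% FBS and received, for 72 h, either the solvent DMSO or the synthetic androgen R1881 (methyltrienolone) at 1 nM, a supraphysiological androgen level (SAL). Total RNA from 3 DMSO and 3 SAL cultures, numbered 1 to 3 in each group, was sequenced. No library was taken before treatment, so a difference describes SAL against solvent at 72 h and not a change over time.

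Replication origins are licensed while a cell is in G1. The origin recognition complex (ORC1 to ORC6) sits on the DNA, and CDC6 and CDT1 then load rings of MCM2 to MCM7, the helicase core, which stay inactive until S phase. At firing, the kinase CDC7 with DBF4, and factors such as TICRR, TOPBP1 and MCM10, let CDC45 and the GINS proteins join the MCM ring and turn it into the working helicase, after which DNA polymerase epsilon copies the leading strand while TIMELESS, TIPIN and CLSPN steady the fork. Many of these genes are transcribed under E2F factors as cells enter S phase, and their RNA is scarce in cells that have left the cycle. In RNA from a whole culture, fewer cycling cells and less RNA per cell cannot be told apart.

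Depth and identity of the libraries were checked first. After ribosomal RNA genes were set aside, 6931042 to 8186483 reads fell on genes in the DMSO libraries and 8112598 to 9776990 in the SAL libraries. The 9 luminal prostate markers were all expressed, with a summed level of 2735 to 5225 CPM, the counts scaled to a common library total, in DMSO and 5006 to 10253 in SAL, whereas those of basal epithelium summed to at most 0.372 CPM and those of leukocytes to at most 0.246 CPM, with KRT5, PTPRC and CD3E at 0 in all 6 libraries. Fibroblast markers summed to 2.43 to 11.1 CPM, neuroendocrine markers to 2.11 to 4.06 and endothelial markers to 0.496 to 3.84, each over an overlapping range in DMSO and SAL. KLK3, the androgen-induced gene for prostate-specific antigen, was higher in SAL by 1.21 on the log2 scale (adjusted p = 3.33e-07). Libraries that shared a replicate number deviated together from their group means, with correlations over genes of 0.886, 0.856 and 0.739 for numbers 1, 2 and 3, so the number was kept as a block unless a fit without it is named.

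Most replication genes were lower in SAL. All 40 were expressed well enough to be tested, and 28 of them, or 70.0%, were down-regulated at an adjusted p under 0.05, where 9.37% of the 16835 genes tested were called lower. Without the libraries of replicate 3 the count was 15, where 2.84% of genes were called lower. Only ORC5 was called higher, where the background was 11.5%, and 11 members did not pass the threshold in either direction. The median log2 fold change of the members was -0.56, and that of all genes tested was -0.0011. Of the 40, 37 had a negative fold change and 32 were lower in SAL in each of the 3 same-numbered pairs. Among the 16835 genes tested, 8443 had a negative fold change and 4260 were lower in each pair. The median of the members was -0.60 in pair 1, -0.38 in pair 2 and -0.55 in pair 3.

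Genes called lower were found at each of the main steps. In licensing, 11 of 16 members fell and 1 rose, and the median of their log2 fold changes was -0.56. In firing, 8 of 10 fell, with a median of -0.72, and at the fork 9 of 12 fell, with a median of -0.45. Without replicate 3 the count was 6 in licensing, 6 in firing and 3 at the fork, where 2.84% of all genes were called lower. In DESeq2 it was 10 in licensing, 8 in firing and 5 at the fork, where 5.64% of all genes were called lower. Neither of the 2 helicase genes of recombination repair, MCM8 and MCM9, passed the test, and their median was -0.23. Differences between the steps were not tested. The calls rest on comparing libraries within a pair: without the replicate block 0 of the 40 members passed in either direction in edgeR, 1 had an unadjusted p under 0.05, and the median was -0.54.

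**Figure D1:**
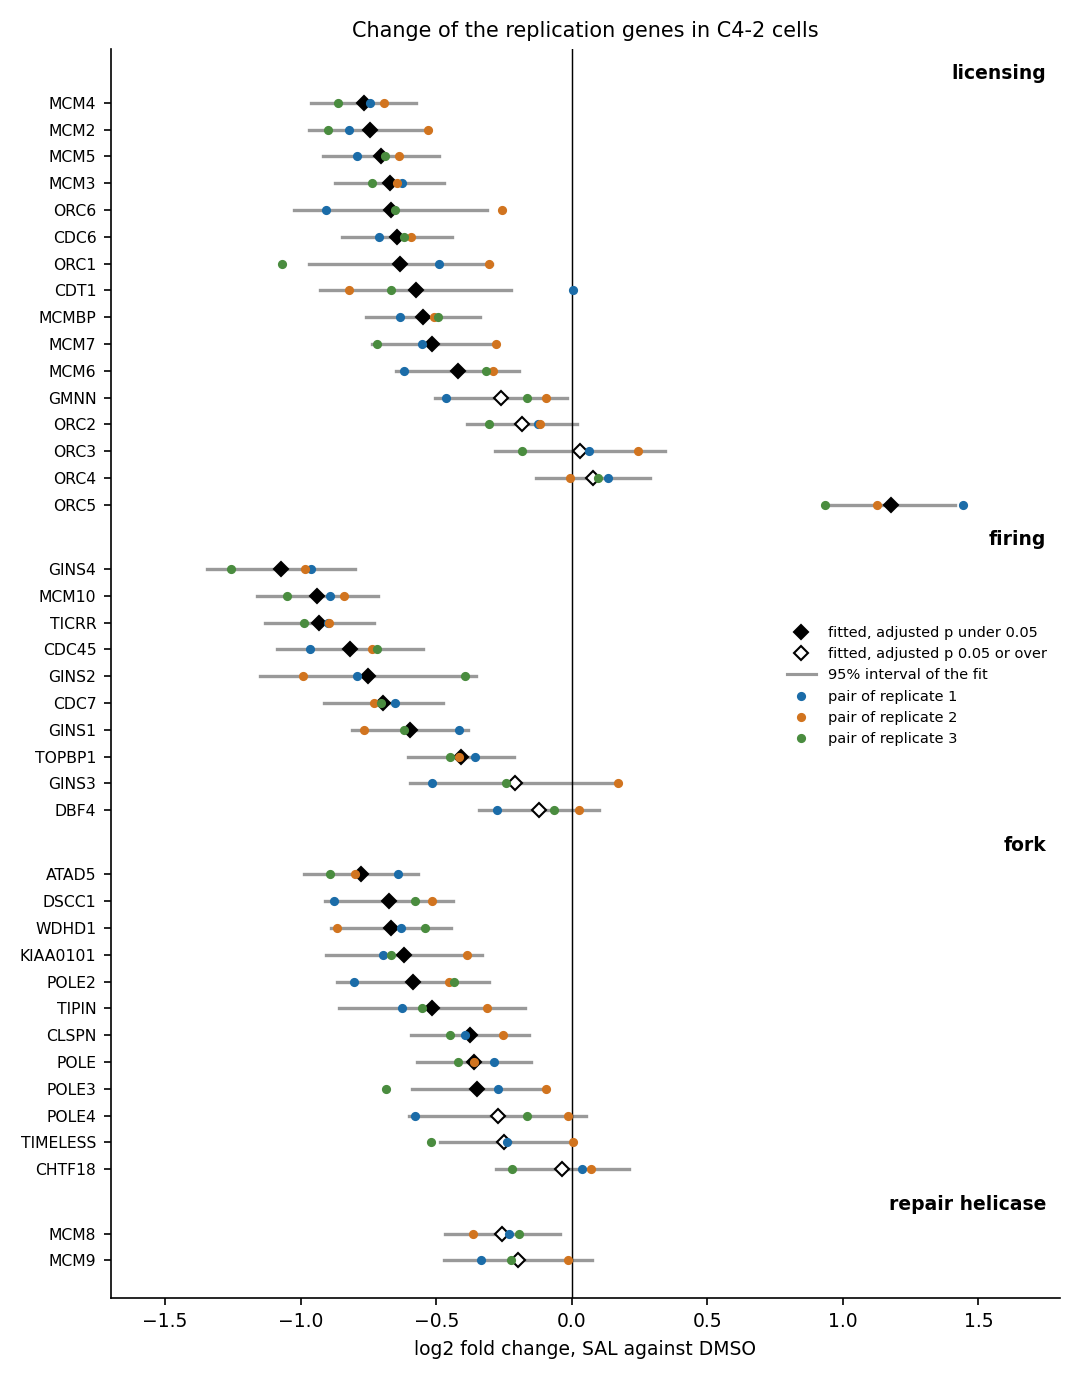
Log2 fold change (SAL against DMSO, horizontal axis) of the 40 replication genes, ordered by step and by size. Diamonds give the fitted value (filled where the adjusted p is under 0.05), grey lines its 95% interval, and coloured points the difference within each same-numbered pair. Filled diamonds lie left of zero for 28 genes, and ORC5 at 1.18 is the filled diamond to the right.

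Some promoters of these genes hold short sequence elements, which had no part in the choice of the genes. RefSeq promoter windows, from 250 bases before to 50 bases after the transcription start on GRCh38.p14, were at hand for 35 of the 40 genes; none was matched for MCM4, MCM5, GINS4, DSCC1 and ATAD5. The letters of an E2F site (TTTCCCGC, TTTGGCGC, TTTCGCGC or TTTGCCGC, on either strand) occurred in 16 of the 35 windows, or 45.7%, and in 3.33% of the windows of all 27305 genes. CCAAT, also searched on both strands, occurred in 60.0% of the members' windows and in 35.7% of all. The letters of the cell cycle homology region, TTTGAA or TTCGAA, were found in 5.71% of the members (MCM6 and DBF4) and in 16.6% of all windows. AGAACA, the core letters of an androgen response element, were found in 5.71% (GMNN and CLSPN) and in 14.9% of all. A match is a run of letters and not evidence that a factor is bound there.

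The stretch around the start is shown for the 9 genes called lower whose E2F letters fall wholly between 50 bases before and 10 bases after it, grouped as licensing (CDT1, MCM2, MCM3, MCM7), firing (GINS2, TOPBP1) and fork (POLE, POLE2, CLSPN), and for ORC5, the gene called higher, which had no E2F letters in its full window. Each is written 5′ to 3′ on the coding strand, with the E2F letters in capitals. Their GRCh38.p14 positions are chr7:104208004-104208063 on the minus strand for ORC5, chr16:88803739-88803798 (plus) for CDT1, chr3:127598361-127598420 (plus) for MCM2, chr6:52284733-52284792 (minus) for MCM3, chr7:100101388-100101447 (minus) for MCM7, chr16:85688945-85689004 (minus) for GINS2, chr3:133661932-133661991 (minus) for TOPBP1, chr12:132687333-132687392 (minus) for POLE, chr14:49688205-49688264 (minus) for POLE2 and chr1:35769969-35770028 (minus) for CLSPN.
ORC5: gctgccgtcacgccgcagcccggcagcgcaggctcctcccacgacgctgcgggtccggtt
CDT1: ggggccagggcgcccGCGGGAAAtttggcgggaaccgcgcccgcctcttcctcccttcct
MCM2: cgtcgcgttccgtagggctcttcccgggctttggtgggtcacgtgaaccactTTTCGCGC
MCM3: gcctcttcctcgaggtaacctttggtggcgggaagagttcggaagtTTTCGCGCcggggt
MCM7: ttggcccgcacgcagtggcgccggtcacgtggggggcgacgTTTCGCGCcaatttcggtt
GINS2: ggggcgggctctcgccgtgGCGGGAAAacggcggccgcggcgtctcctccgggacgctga
TOPBP1: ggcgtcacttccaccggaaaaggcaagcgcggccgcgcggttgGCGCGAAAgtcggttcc
POLE: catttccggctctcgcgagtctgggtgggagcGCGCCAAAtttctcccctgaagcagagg
POLE2: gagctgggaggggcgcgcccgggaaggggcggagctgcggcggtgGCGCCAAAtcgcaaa
CLSPN: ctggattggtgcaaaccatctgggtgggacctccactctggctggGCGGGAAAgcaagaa

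ORC3, GINS3 and POLE4 also hold E2F letters within this stretch and were not called. Over the full windows the median log2 fold change was -0.47 over the 16 genes with the letters, 12 of which were called lower, and -0.51 over the 19 without them. Over all genes tested, 9.37% were called lower. Among genes with the letters, MCM8 too did not pass the test. The genes called lower with no such letters in the window were ORC1, ORC6, MCMBP, CDC7, CDC45, MCM10, TICRR, POLE3, TIPIN, WDHD1 and KIAA0101. In MCM2 and MCM6 the letters of neighbouring matches overlap each other on opposite strands.

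Within licensing, the genes of the MCM2 to MCM7 ring fell together: 6 of 6 were called lower, and their median was -0.69 on the log2 scale. MCM4 was counted at 281, 293 and 352 CPM in DMSO replicates 1, 2 and 3 and at 167, 181 and 194 CPM in SAL replicates 1, 2 and 3. No SAL library reached a DMSO library, and the gene fell by 41.2% (log2 fold change -0.77 ± 0.09 SE, adjusted p = 2.00e-05). MCM3 stood at 75.1, 165 and 168 CPM in DMSO and at 48.5, 105 and 100 CPM in SAL (-0.67 ± 0.09, adjusted p = 9.40e-05). MCM2 stood at 49.1, 161 and 143 CPM in DMSO and at 27.7, 112 and 76.3 CPM in SAL (-0.75 ± 0.10, adjusted p = 9.42e-05). For both genes the groups overlapped because replicate 1 was low under either treatment, and the SAL library was below its DMSO partner in each of the 3 pairs.

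The other 3 subunits of the ring followed. The fold change of MCM5 on the log2 scale was -0.70 ± 0.10 (adjusted p = 0.000118), that of MCM7 -0.51 ± 0.10 (adjusted p = 0.00233) and that of MCM6 -0.42 ± 0.11 (adjusted p = 0.0101), and each was lower in 3 of 3 pairs. MCM6 differed from its partners in which replicate was high, with 110, 31.0 and 69.7 CPM in DMSO against 71.7, 25.3 and 55.9 CPM in SAL. MCMBP, which binds free MCM subunits, stood at 82.4, 56.9 and 80.4 CPM in DMSO and at 53.0, 39.9 and 57.0 CPM in SAL, or -0.55 ± 0.10 on the log2 scale (adjusted p = 0.000902). Without the libraries of replicate 3 the calls of MCM6 (adjusted p = 0.120) and MCM7 (adjusted p = 0.175) were lost, and without replicate 1 that of MCM6 (adjusted p = 0.0629).

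**Figure D2:**
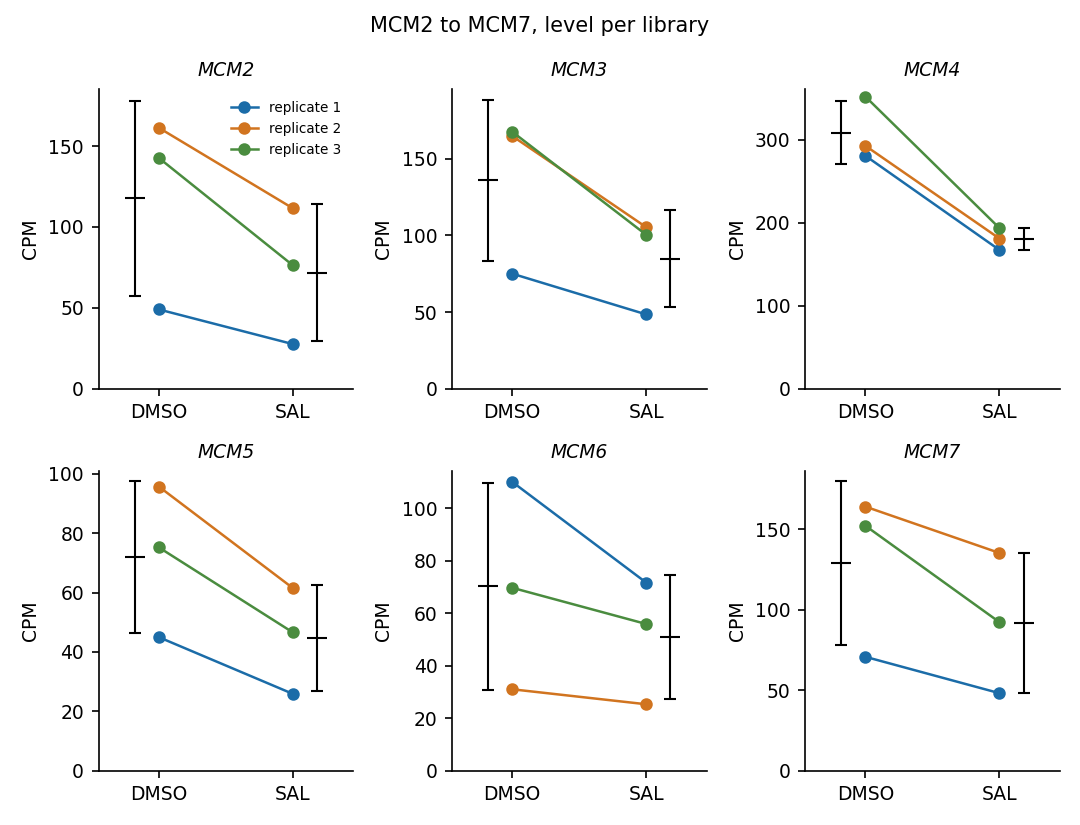
Level in CPM (vertical axis) of MCM2 to MCM7 in the 3 DMSO and 3 SAL libraries, with lines joining libraries of the same replicate number and bars giving the group mean ± SD. Every line runs downwards, and in MCM4 the 3 SAL libraries (167 to 194 CPM) lie below the 3 DMSO libraries (281 to 352 CPM).

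The origin recognition complex did not move as a set. Of its 6 genes 2 were called lower, 1 was called higher and 3 did not pass, and the median on the log2 scale was -0.077. ORC5 was counted at 98.5, 33.1 and 69.2 CPM in DMSO and at 268, 72.5 and 133 CPM in SAL. The SAL library was above its DMSO partner in each pair, by 1.44, 1.13 and 0.94 on the log2 scale, although the groups overlapped because replicate 2 was low in both. The fitted log2 fold change was 1.18 ± 0.11 (95% interval 0.94 to 1.41, adjusted p = 1.63e-06), or 2.26-fold, and it stayed between 1.02 and 1.30 in all 11 alternative fits, 10 of which called it; the exception was the fit without the block. The gene lies at chr7:103766788-103848495 on the minus strand of GRCh37. In an annotation newer than the one used for counting, it shared no exon base with another gene.

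ORC1 and ORC6 were the pair called lower. ORC1, the subunit that comes and goes with the cell cycle, stood at 26.4, 21.1 and 33.4 CPM in DMSO and at 18.7, 17.0 and 15.8 CPM in SAL, so that the groups did not overlap (log2 fold change -0.63 ± 0.16, adjusted p = 0.00990). ORC6 stood at 34.6, 7.66 and 18.2 CPM in DMSO and at 18.3, 6.36 and 11.5 CPM in SAL (-0.67 ± 0.17, adjusted p = 0.00963). Both calls were lost without replicate 3, at an adjusted p of 0.295 for ORC1 and 0.126 for ORC6, and that of ORC6 also without replicate 1 (0.0786).

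For ORC2, ORC3 and ORC4, which with ORC5 form the body of the complex, no difference passed the test. ORC2 stood at 112, 69.1 and 96.3 CPM in DMSO and at 102, 63.6 and 78.0 CPM in SAL (log2 fold change -0.18, 95% interval -0.39 to 0.02, adjusted p = 0.203). ORC3 stood at 29.7, 9.30 and 19.6 CPM in DMSO and at 31.1, 11.1 and 17.2 CPM in SAL (0.03, -0.28 to 0.34, adjusted p = 0.918). ORC4 stood at 81.6, 36.6 and 62.9 CPM in DMSO and at 89.5, 36.5 and 67.4 CPM in SAL (0.08, -0.13 to 0.29, adjusted p = 0.629). The upper ends of these intervals are below 0.94, the lower end of that for ORC5, and a decrease of up to 0.39 in ORC2 remains within its interval.

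**Figure D3:**
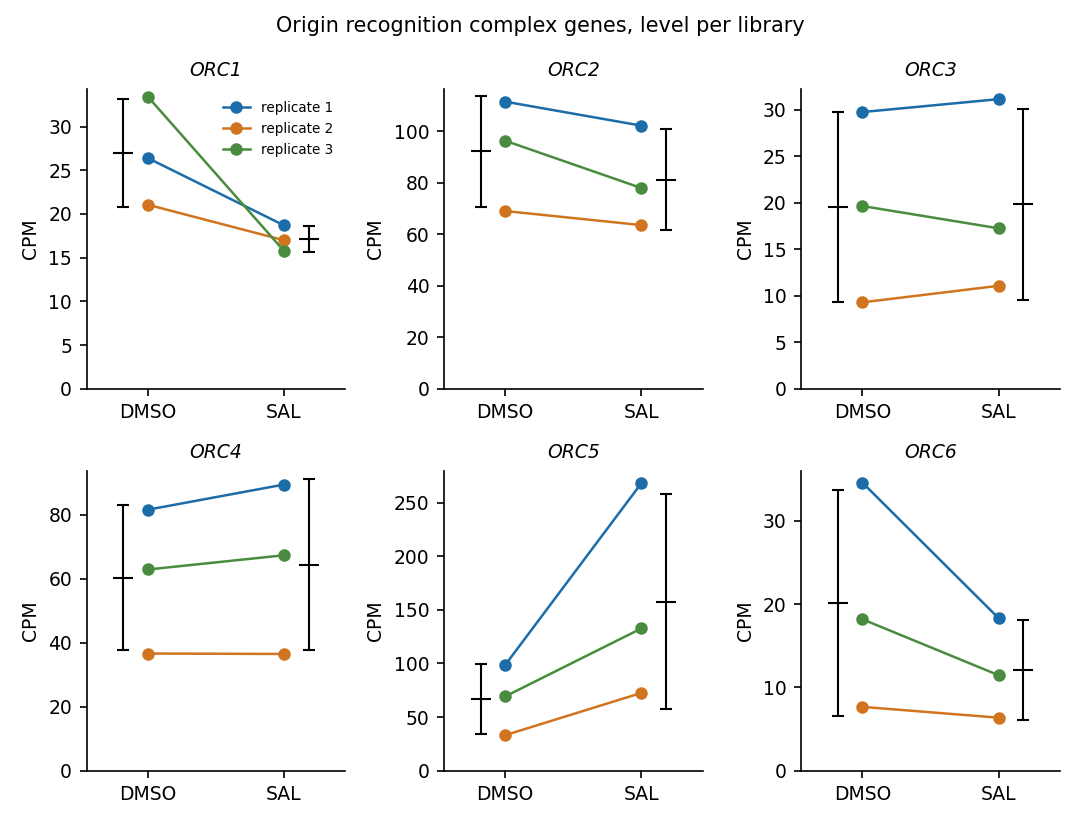
Level in CPM (vertical axis) of the 6 origin recognition complex genes in the 3 DMSO and 3 SAL libraries, with lines joining libraries of the same replicate number and bars giving the group mean ± SD. Lines rise in ORC5 (33.1 to 98.5 CPM in DMSO, 72.5 to 268 CPM in SAL) and fall in ORC1 and ORC6, and those of ORC3 run in both directions.

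Both loaders of the MCM ring were called lower. CDC6 stood at 144, 56.1 and 114 CPM in DMSO and at 88.1, 37.1 and 74.2 CPM in SAL, a decrease (log2 fold change -0.65 ± 0.09, adjusted p = 0.000152) that was close to equal in the 3 pairs (-0.71, -0.59 and -0.62). CDT1 stood at 8.05, 39.4 and 28.3 CPM in DMSO and at 8.07, 22.1 and 17.7 CPM in SAL (-0.58 ± 0.16, adjusted p = 0.0209). Its pairs 2 and 3 fell by 0.82 and 0.67 on the log2 scale, and pair 1, with 65 and 63 reads, differed by 0.0026. The CDT1 call was lost in DESeq2 (adjusted p = 0.0911), without replicate 2 (0.178) and without replicate 3 (0.276).

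GMNN encodes geminin, which binds CDT1 and stops it from licensing an origin again in S phase. It stood at 87.8, 21.5 and 43.2 CPM in DMSO and at 63.6, 20.1 and 38.4 CPM in SAL, lower in each pair, and did not pass the test (log2 fold change -0.26, 95% interval -0.50 to -0.02, adjusted p = 0.123). The log2 ratio of CDT1 to GMNN within a library was -3.41, 0.87 and -0.60 in DMSO and -2.94, 0.14 and -1.10 in SAL. The mean difference was -0.25, smaller than the differences between replicate numbers within either group. An exact two-sided permutation test of the 6 libraries, which ignores the pairing and cannot give less than 0.1 with 3 against 3, gave p = 0.8, so no statement about a change in the ratio rests on it. Within pairs the difference was 0.47, -0.73 and -0.50.

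Firing genes held the largest decreases among the 40. GINS4, a subunit of the GINS complex that clamps CDC45 to the MCM ring, stood at 36.7, 37.7 and 35.7 CPM in DMSO and at 18.7, 18.97 and 14.8 CPM in SAL. Its DMSO libraries were close together, no SAL library overlapped them, and the gene fell by 52.5% (log2 fold change -1.07 ± 0.13, adjusted p = 2.15e-05). MCM10, which activates the assembled helicase, stood at 77.9, 39.1 and 93.1 CPM in DMSO and at 41.9, 21.7 and 44.8 CPM in SAL (-0.94 ± 0.10, adjusted p = 1.05e-05). TICRR, which brings CDC45 to origins once phosphorylated by cyclin-dependent kinases, stood at 90.9, 96.4 and 175 CPM in DMSO and at 48.7, 51.8 and 88.2 CPM in SAL (-0.93 ± 0.09, adjusted p = 4.04e-06). Its groups did not overlap, and TICRR changed by nearly the same amount in each pair, -0.90, -0.89 and -0.99. TOPBP1, the partner of TICRR, was also called lower (-0.41 ± 0.09, adjusted p = 0.00468), with 232, 90.0 and 193 CPM in DMSO against 181, 67.3 and 141 CPM in SAL.

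The helicase cofactors CDC45 and GINS1 to GINS4 were called lower in 4 of 5 cases. CDC45 stood at 43.98, 30.5 and 29.1 CPM in DMSO and at 22.4, 18.2 and 17.6 CPM in SAL, without overlap (log2 fold change -0.82 ± 0.13, adjusted p = 0.000240). GINS1 stood at 292, 92.4 and 98.6 CPM in DMSO and at 219, 54.2 and 64.1 CPM in SAL (-0.60 ± 0.10, adjusted p = 0.000497). GINS2 stood at 16.6, 13.5 and 9.62 CPM in DMSO and at 9.48, 6.69 and 7.27 CPM in SAL, so that its lowest DMSO and highest SAL library were nearly level (-0.75 ± 0.19, adjusted p = 0.00919). GINS3 was the exception, with 16.6, 9.71 and 12.4 CPM in DMSO and 11.5, 11.0 and 10.5 CPM in SAL: pair 2 ran upwards by 0.17 and the fold change did not pass the test (-0.21, 95% interval -0.60 to 0.18, adjusted p = 0.464). The call of GINS1 was lost without replicate 3 (adjusted p = 0.0529), as was that of TOPBP1 (0.201), and the call of GINS2 without replicate 2 (0.0566).

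**Figure D4:**
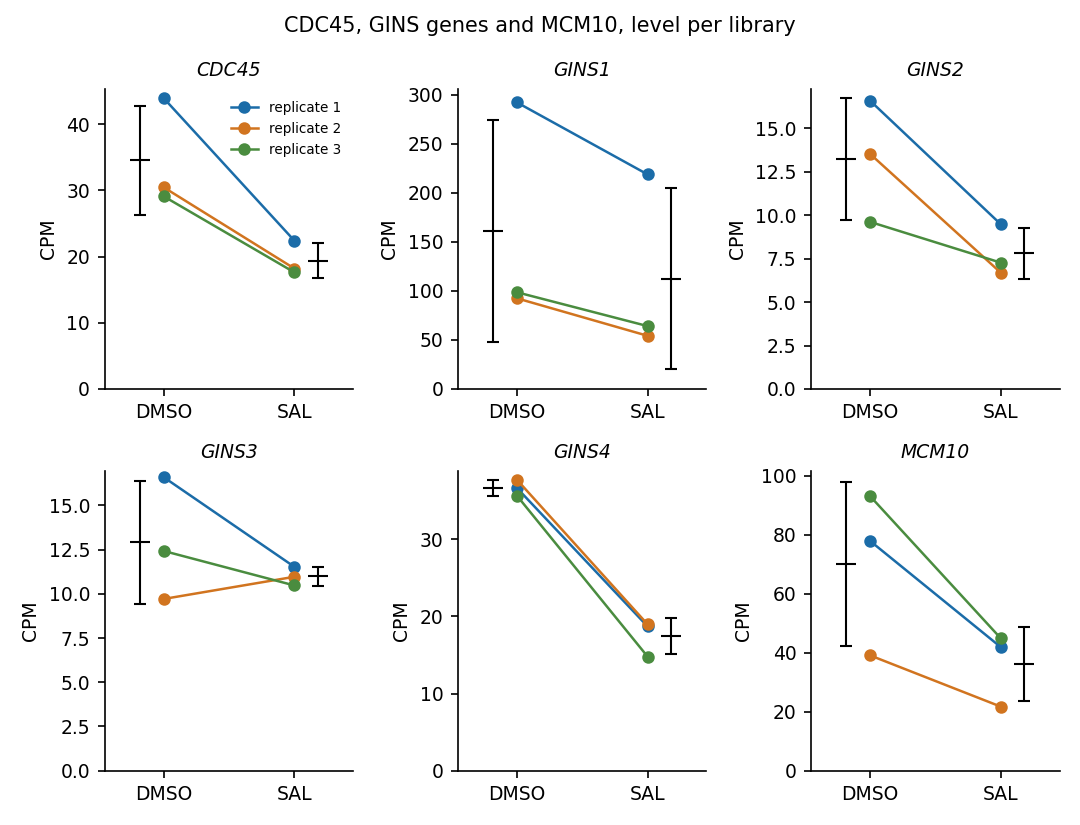
Level in CPM (vertical axis) of CDC45, the 4 GINS genes and MCM10 in the 3 DMSO and 3 SAL libraries, with lines joining libraries of the same replicate number and bars giving the group mean ± SD. The 3 lines of GINS4 nearly coincide and drop from 35.7 to 37.7 CPM in DMSO to 14.8 to 18.97 CPM in SAL, whereas in GINS3 the replicate 2 line rises.

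The kinase that triggers firing consists of the catalytic CDC7 and its activator DBF4, and only the former passed. CDC7 stood at 109, 25.4 and 73.2 CPM in DMSO and at 69.2, 15.2 and 44.8 CPM in SAL, with pair differences of -0.65, -0.73 and -0.70 on the log2 scale (log2 fold change -0.69 ± 0.10, adjusted p = 0.000152). DBF4 stood at 108, 23.4 and 65.3 CPM in DMSO and at 88.7, 23.8 and 62.3 CPM in SAL (-0.12, 95% interval -0.34 to 0.10, adjusted p = 0.464). Both genes were low in replicate 2 and high in replicate 1. The difference between their fold changes was not tested.

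At the fork, the clearest decreases were in genes that handle the sliding clamp PCNA and couple the helicase to the polymerases. ATAD5, whose product unloads PCNA after synthesis, stood at 142, 48.7 and 128 CPM in DMSO and at 90.8, 27.8 and 68.8 CPM in SAL (log2 fold change -0.78 ± 0.10, adjusted p = 3.96e-05). WDHD1, which ties the helicase to DNA polymerase alpha, stood at 111, 37.2 and 90.1 CPM in DMSO and at 71.6, 20.3 and 61.9 CPM in SAL (-0.67 ± 0.10, adjusted p = 0.000256). DSCC1, a subunit of the alternative clamp loader, stood at 104, 33.8 and 55.5 CPM in DMSO and at 56.3, 23.6 and 37.1 CPM in SAL (-0.67 ± 0.11, adjusted p = 0.000412). In all 3 genes each SAL library was below its DMSO partner, and the groups overlapped because replicate 2 was low in both and, in DSCC1, because SAL replicate 1 lay just above DMSO replicate 3.

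The clamp-loader partner of DSCC1 gave a different picture. CHTF18 stood at 22.7, 54.4 and 37.7 CPM in DMSO and at 23.3, 57.2 and 32.3 CPM in SAL, with pairs 1 and 2 slightly up and pair 3 down (log2 fold change -0.04, 95% interval -0.28 to 0.21, adjusted p = 0.870). KIAA0101, now named PCLAF, encodes a small PCNA-binding protein and was called lower (-0.62 ± 0.14, adjusted p = 0.00392). Its level varied strongly with the replicate number, at 66.3, 10.1 and 19.5 CPM in DMSO against 40.9, 7.67 and 12.2 CPM in SAL. The call was lost without replicate 3 (adjusted p = 0.0909).

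Of the 4 subunits of DNA polymerase epsilon, 3 were called lower, and the median over the 4 was -0.35 on the log2 scale. The second subunit POLE2 had the largest decrease among them, with 52.9, 15.9 and 30.9 CPM in DMSO against 30.2, 11.5 and 22.8 CPM in SAL (-0.59 ± 0.13, adjusted p = 0.00484). The catalytic POLE followed at -0.36 ± 0.10 (adjusted p = 0.0170) and the histone-fold subunit POLE3 at -0.35 ± 0.11 (adjusted p = 0.0389). POLE4, the partner of POLE3, stood at 35.3, 19.8 and 11.5 CPM in DMSO and at 23.6, 19.6 and 10.2 CPM in SAL and did not pass (-0.27, 95% interval -0.60 to 0.05, adjusted p = 0.241). The calls of POLE and POLE3 were lost in DESeq2 (adjusted p = 0.0828 and 0.0778), and without replicate 3 POLE, POLE2 and POLE3 all lost theirs (0.292, 0.0554 and 0.624).

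Of the genes that protect the fork, WDHD1 is described above, CLSPN and TIPIN were also called lower and TIMELESS was not. CLSPN, the adaptor of checkpoint signalling at the fork, changed by -0.38 ± 0.10 on the log2 scale (adjusted p = 0.0156) and TIPIN by -0.51 ± 0.16 (adjusted p = 0.0335), each lower in 3 of 3 pairs. TIMELESS, with which TIPIN forms a dimer, stood at 49.8, 114 and 116 CPM in DMSO and at 42.1, 115 and 80.7 CPM in SAL and did not pass (-0.25, 95% interval -0.49 to -0.02, adjusted p = 0.127). It was level in pair 2 and was called lower once replicate 2 was left out (adjusted p = 0.0267) and after the correction for GC content and exon length (0.0463). The calls of CLSPN and TIPIN were lost in DESeq2 (adjusted p = 0.0757 and 0.151) and without replicate 3 (0.299 and 0.249), and that of TIPIN also without replicate 1 (0.113).

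MCM8 and MCM9 resemble the MCM ring in sequence but form a separate helicase that acts in homologous recombination. MCM8 stood at 100.5, 29.5 and 79.5 CPM in DMSO and at 85.5, 22.9 and 69.4 CPM in SAL (log2 fold change -0.26, 95% interval -0.47 to -0.04, adjusted p = 0.0836). MCM9 stood at 29.5, 19.8 and 35.1 CPM in DMSO and at 23.3, 19.6 and 30.1 CPM in SAL (-0.20, -0.47 to 0.07, adjusted p = 0.314). Both were lower in 3 of 3 pairs without passing the test. For comparison, the 95% interval was -0.96 to -0.57 for MCM4 and -0.65 to -0.19 for MCM6, the largest and the smallest decrease within the ring, and the difference between ring and repair helicase was not tested.

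Groups that do not overlap were rarer than calls. In 6 of the 40 genes, ORC1, MCM4, CDC45, GINS2, GINS4 and TICRR, all 3 SAL libraries were below all 3 DMSO libraries, which held for 3.73% of all genes tested. In the other genes called lower, at least 1 SAL library lay above a DMSO library of another number, and the call came from the comparison within pairs. The median deviation of the 40 genes from their group mean, on the log2 scale, was 0.45 in DMSO and 0.42 in SAL for replicate 1, -0.43 and -0.32 for replicate 2 and 0.18 and 0.14 for replicate 3.

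The ratio between replicate numbers moved with base composition. Across the 40 genes, the GC content of the exons and the log2 ratio of DMSO replicate 2 to replicate 1 had a Pearson correlation of 0.857 (Spearman 0.774), and in SAL of 0.846 (0.792), the points sharing the same 2 libraries each. The 11 genes that were higher in DMSO replicate 2 than in replicate 1, among them CDT1, MCM2, MCM3, MCM5, MCM7 and POLE, had a median GC content of 55.1%, and the 29 that were lower, among them KIAA0101, DBF4, CDC7 and ORC6, of 42.4%. Of these, 9 of the 11 and 19 of the 29 were called lower, where 9.37% of all genes tested were, with median log2 fold changes of -0.67 and -0.51. Between GC content and the log2 fold change itself the correlation was -0.249 (Spearman -0.310). With a correction for GC content and exon length in each library, 29 members were called lower and 1 higher, and the median was -0.57. That fit tested only the 14138 genes for which GC content and exon length were matched, of which 13.2% were called lower and 13.8% higher. Ribosomal RNA took 27.7 and 27.8% of the reads on genes in DMSO and SAL of replicate 1, 18.6 and 22.0% in replicate 2 and 11.9 and 17.4% in replicate 3, and its part in the spread was not tested.

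**Figure D5:**
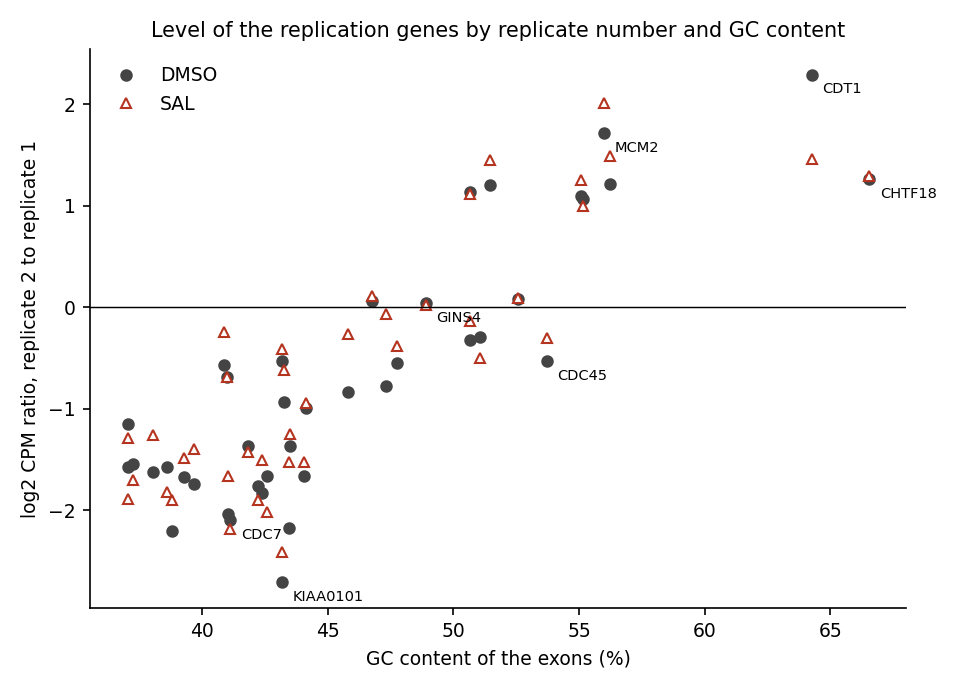
Log2 ratio of the CPM in replicate 2 to that in replicate 1 (vertical axis) against the GC content of the exons in percent (horizontal axis) for the 40 replication genes, with filled circles for DMSO and open triangles for SAL. Genes near 40% GC lie below zero and genes above 55% GC above it, CDT1 at 2.29 and KIAA0101 at -2.71 in DMSO being the extremes, and both treatments give the same picture.

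Levels per length were compared within each complex as CPM per kilobase of exon, averaged over the 3 DMSO libraries. In polymerase epsilon, POLE3 was at 60.3, above POLE2 at 11.3, POLE4 at 11.1 and POLE at 5.32, with POLE2 and POLE4 within their spread of each other. Among the helicase cofactors GINS1 had the highest mean at 20.1. It stood at 36.5, 11.5 and 12.3 in DMSO replicates 1, 2 and 3, against 14.8, 10.2 and 9.78 for CDC45. In the origin recognition complex ORC5 stood at 18.0 in DMSO and 42.3 in SAL, and ORC2 at 15.8 in DMSO. Values in the MCM ring ran from 37.3 for MCM3 to 9.90 for MCM5. When the median transcript length was used in place of all exon bases, POLE3 kept the highest mean in polymerase epsilon, at 73.1 (SD 16.3). The spread of POLE2, at 50.3 (SD 28.2), overlapped that of POLE3. GINS1 kept the highest mean at 55.9 (SD 39.4), with GINS4 at 43.9 (SD 1.24) within its spread. MCM3 came last in its ring, ORC2 and ORC4 came above ORC5, and GINS2 fell below GINS3. No order was therefore read within any complex. Where exon bases are shared with another gene, counts made without strand may be lost or mixed. In an annotation newer than the one used for counting, the share was above 10% in MCM8 (33.3%), KIAA0101 (29.3%), MCM2 (23.6%), GINS4 (23.4%), TIPIN (21.1%) and GINS3 (10.9%). Whether the annotation used for counting held the same overlaps was not tested.

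The remaining replication genes followed the members. A further 42 genes for priming, lagging-strand synthesis, licensing control, chromatin assembly and topology were looked up. In edgeR, 31 of them were called lower and 0 higher, the median being -0.47 on the log2 scale. Over all genes tested, 9.37% were called lower and 11.5% higher in that fit. In DESeq2, 20 were called lower and 0 higher, where 5.64% of all genes were called lower and 7.66% higher. Without the libraries of replicate 3 the count called lower was 8, where 2.84% of all genes were called lower. POLD4 was the gene with a positive value that had an unadjusted p under 0.05. The called genes included 17 of 23 for priming and lagging-strand synthesis, 3 of 3 initiation cofactors (MTBP, DONSON and RECQL4), 5 of 8 for licensing control, 3 of 4 for chromatin assembly and 3 of 4 for topology and termination. TOP2A, which untangles DNA behind the fork and in mitosis, had the smallest adjusted p, with 433, 123 and 353 CPM in DMSO against 225, 54.6 and 183 CPM in SAL (-1.02 ± 0.09, adjusted p = 1.57e-06). SKP2, part of the ubiquitin ligase that degrades CDT1 and other regulators, followed at -0.74 ± 0.10 (adjusted p = 5.64e-05). The smallest adjusted p among the genes with a positive value belonged to POLD4, a small subunit of polymerase delta (0.54 ± 0.22, adjusted p = 0.0994), and TOP1 (0.12 ± 0.09, adjusted p = 0.397), neither of which passed.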

How the data were processed

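The 6 C4-2 libraries (3 DMSO, 3 SAL) were sequenced from total RNA with a stranded kit. The authors trimmed the reads, mapped read 1 of each pair to hg19 with TopHat2 2.1.0 and Bowtie, and deposited raw counts per gene symbol made without regard to strand by HTSeq 0.11.2. The study performed the sequencing independently for each replicate. From the deposited counts, 523 symbols of ribosomal RNA genes and the tallies of reads on no gene (24.0 to 48.3% of all) or on several were left out. Genes were filtered with filterByExpr, scaled by TMM and fitted in edgeR 4.0.16 (R 4.3.3) by the robust quasi-likelihood test with the replicate number as a block, and p-values were adjusted by the Benjamini-Hochberg method over all 16835 genes tested. Replicate numbers were taken to pair the libraries because the deviations of same-numbered libraries from their group means correlated positively (0.739 to 0.886). Those of other numbers ranged from -0.823 to 0.0395, where centring on 3 libraries pushes values below 0. The study's methods also name a paired test, but the labels do not say that equal numbers mark a shared experiment. The SE is the absolute log2 fold change over the square root of F, and pair differences and the CDT1 to GMNN ratio are on log2 CPM with a prior count of 2. Exon lengths, exon overlaps and GC content came from a GRCh37 annotation newer than the one used for counting. Lengths and GC content were matched for 40 of 40 members and for 14138 of the 16835 genes tested. The fit was also run on counts simulated from its own fitted values, which checks the procedure and gives no error rate for these data. Alternatives were DESeq2 1.42.0, other scalings, filters and thresholds, leaving out each replicate number, no block, and a correction for GC content and length added after the data were seen.

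The members and lists were chosen with earlier results of these data known. Values per library are given for the 3 members with the smallest adjusted p at each step, for all with a positive or uncalled fold change, and for further members where the text needs them.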

Additional observations from a re-analysis of the deposited data

How the results depend on the processing

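With DESeq2 and the replicate block, 23 members were called lower and 1 higher, where 5.64% of all genes were called lower and 7.66% higher. Fork genes called lower fell from 9 to 5 and the further replication genes from 31 to 20. Without the block, 0 members were called lower or higher at any step, and 0 of the further replication genes, while the median stayed at -0.54. Leaving out each replicate in turn gave 15 to 27 members called lower (15 without replicate 3). By step these were 6 to 10 in licensing, 6 to 8 in firing and 3 to 10 at the fork. Of all genes, 11.7, 7.92 and 2.84% were called lower and 14.6, 9.10 and 4.41% higher without replicates 1, 2 and 3. Of the further genes, 8 to 30 were called lower and 0 to 1 higher. The median of the members was -0.59 to -0.49, and the CDT1 to GMNN difference -0.61 to -0.02. At an adjusted p under 0.01, 22 members were called lower, 5 of them at the fork, with 18 of the further genes. In that setting 5.20% of all genes were called lower. At an adjusted p under 0.05 with a change of 0.5 or more on the log2 scale, 23 members and 15 of the further genes were. The share of all genes was then 6.29%. DESeq2 size factors, both other filters, keeping ribosomal RNA genes and removing mitochondrial genes each gave 28 members lower and 1 higher. Across these fits, 4.84% (no filter on low counts) to 10.1% (at least 10 counts in every library) of all genes were called lower. The share called higher ran from 6.68 to 12.3% in the same 2 fits. Over the same omissions ORC3 ran from -0.065 to 0.15 (negative without replicate 2) and CHTF18 from -0.12 to 0.058 (positive without replicate 3), and neither was called. The cause of these shifts was not tested. With 3 libraries per group and as few as 56 reads for ORC6 or 59 for GINS2 in a library, small changes in such genes were not resolved.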
